A study of Homo sapiens with 18 samples.

Results

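The chromatin response of SCC25 cells to cetuximab was set against that of SCC1 cells, both squamous carcinoma lines of the head and neck. ATAC-seq was used, in which the Tn5 transposase inserts adapters into open chromatin, so that a region's read signal measures its accessibility. Each line had been treated daily with 100 nM cetuximab or with PBS, for 5 days. The comparison held 11 of the 17 libraries with values, chosen by line: 3 cetuximab and 3 PBS libraries of SCC25, and 3 cetuximab and 2 PBS libraries of SCC1. SCC1 PBS replicate 2 was not analysed here. All groups grew in the same medium with serum, and the PBS groups serve as untreated controls. Each line stands for 1 tumour, so the comparison is between these lines and not between classes of tumour. Nothing in the labels says that the replicates came from separate cultures, so the p-values measure only the spread between these libraries, which may be technical.

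The quantity described is the interaction of line and treatment: the log2 change (cetuximab against PBS) in SCC25 minus that in SCC1, called the difference below. A positive difference means that SCC25 stood above SCC1 in its response, either because SCC1 lost accessibility or because SCC25 gained it, and a negative difference the reverse. Of 115087 regions, 86315 passed a filter on low signal and were tested, and 1263 of them had a difference at an adjusted p under 0.05 in limma. These 1263 regions are the subject here. Rules on what each line did put 947 of them in a class (SCC1 only, SCC25 only, or opposite), with 36 both in SCC1 only and in opposite, and left 316 in none.

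As background, cetuximab is an antibody that binds the extracellular part of the epidermal growth factor receptor EGFR and keeps its ligands away. EGFR signals through RAS and the kinases MEK and ERK, which drive transcription factors of the AP-1 family (FOS and JUN proteins). AP-1 sites are a hallmark of active enhancers in squamous epithelium, where factors of the TP63, TEAD, TFAP2 and GRHL families also bind. Promoters of widely expressed genes are rich in G and C and often carry SP/KLF and NFY (CCAAT) sites.

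The libraries held 2194851 to 4171650 reads in regions in SCC1 and 2513828 to 13408698 in SCC25, and in SCC25 the 3 PBS libraries (5509462 to 13408698) were deeper than cetuximab replicates 1 and 3. Pairs of replicates had a Pearson's r across regions of 0.852 to 0.951. Squamous markers were uneven: the strongest promoter region of DSP had a signal of 125 to 205 in SCC1 and 72.6 to 112 in SCC25, with a peak in 4 of 5 and 5 of 6 libraries, and that of KRT5 52.6 to 134.5 and 53.4 to 97.4, with a peak in 1 of 5 and 4 of 6. TP63 was weak, with 21.9 to 37.7 in SCC1 and 22.8 to 46.4 in SCC25 and a peak in 0 of 5 and 2 of 6, and DSG3 had 7.6 to 49.1 and 25.3 to 52.0, with a peak in 1 of 5 and 4 of 6. No region lay at a promoter of PTPRC, CD3E, PECAM1, CDH5, MYOD1, ALB or SPI1, which mark other lineages. Of that list, MITF (127 to 197 in SCC1 and 68.9 to 85.8 in SCC25) and PMEL (407 to 522 and 386 to 481) had one, and PMEL's regions also lie within 1 kb of start sites of CDK2 or RAB5B. Of 25 tested regions near genes of that list, 1 was called in the interaction, assigned to CDH5.

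The DNA of 7 chosen regions is given as examples, and their motifs do not stand for the classes described below. Each window is the 200 bases around the middle of the region, 5′ to 3′ on the plus strand of hg19 (GRCh37), with matches to the searched motifs in capitals. The first is a distal region that gained accessibility in SCC1 only, with an AP-1 site (TGACTCA or its reverse complement TGAGTCA), a TEAD site (GGAATG, here read as CATTCC on the other strand) and an NFY site (CCAAT).
Between genes, nearest start site ILDR1 (chr3:121693561-121693760): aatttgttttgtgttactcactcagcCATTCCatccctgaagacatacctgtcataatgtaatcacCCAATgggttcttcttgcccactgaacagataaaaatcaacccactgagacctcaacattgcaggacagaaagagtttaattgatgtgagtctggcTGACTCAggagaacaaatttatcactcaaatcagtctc

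The next lost accessibility in SCC1. It lies 22.7 kb from the nearest start site of EGFR and holds an AP-1 and an NFY site.
Upstream of EGFR (chr7:55063613-55063812): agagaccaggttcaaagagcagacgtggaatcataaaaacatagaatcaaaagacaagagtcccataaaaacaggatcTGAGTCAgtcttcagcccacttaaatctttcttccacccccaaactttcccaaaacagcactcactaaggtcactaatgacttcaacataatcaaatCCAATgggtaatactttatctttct

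One intronic region rose in SCC1 and had lower SCC25 libraries, and its capitals mark a FOX site (TGTTTAC).
Intron of RERG, nearest start site PTPRO (chr12:15427580-15427779): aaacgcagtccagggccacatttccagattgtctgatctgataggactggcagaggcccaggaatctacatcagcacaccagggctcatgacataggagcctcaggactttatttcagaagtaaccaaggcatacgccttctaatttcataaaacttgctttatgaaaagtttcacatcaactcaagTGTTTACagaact

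The last 4 are promoters. SP/KLF sites (GGGCGG, or CCGCCC on the other strand) and NFY sites (CCAAT, or ATTGG on the other strand) are in capitals. Those of SCAF1, AP2A1 and GET3, all on chromosome 19, had a negative difference, and that of SLC43A3 had a positive one.
Promoter of SCAF1 (chr19:50145173-50145372): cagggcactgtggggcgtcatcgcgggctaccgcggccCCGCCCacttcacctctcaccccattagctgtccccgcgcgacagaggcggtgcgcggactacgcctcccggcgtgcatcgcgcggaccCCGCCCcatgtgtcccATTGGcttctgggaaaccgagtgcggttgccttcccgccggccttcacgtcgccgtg
Promoter of AP2A1 (chr19:50269784-50269983): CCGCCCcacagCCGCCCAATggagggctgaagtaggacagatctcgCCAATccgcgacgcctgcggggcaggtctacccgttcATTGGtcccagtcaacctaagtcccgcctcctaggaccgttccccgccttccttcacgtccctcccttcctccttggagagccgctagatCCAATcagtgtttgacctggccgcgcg
Promoter of GET3 (chr19:12847875-12848074): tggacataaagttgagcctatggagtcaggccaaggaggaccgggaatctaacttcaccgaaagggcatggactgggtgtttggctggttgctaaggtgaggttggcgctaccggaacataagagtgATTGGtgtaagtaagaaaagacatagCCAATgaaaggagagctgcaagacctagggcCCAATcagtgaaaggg
Promoter of SLC43A3 (chr11:57192501-57192700): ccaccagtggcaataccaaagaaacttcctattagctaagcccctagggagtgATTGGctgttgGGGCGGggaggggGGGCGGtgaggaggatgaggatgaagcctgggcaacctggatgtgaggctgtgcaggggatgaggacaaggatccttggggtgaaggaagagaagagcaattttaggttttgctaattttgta

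Of the 86315 tested regions, 1.46% were called in the interaction: 780 with a positive difference (0.904%) and 483 with a negative one (0.56%). An unadjusted p under 0.05 was reached by 13337 regions. The called differences ranged from -4.17 to 3.98, and the smallest was 0.63 in size. In most of them SCC1 moved more. In 1239 of the 1263 regions the SCC1 change was larger in size than the SCC25 change, in 1236 SCC1 was itself called, and in 1261 its cetuximab and PBS libraries did not overlap, as in 39.8% of all tested regions, where 3 libraries were set against 2. The median change in the 780 regions was -1.82 in SCC1 and -0.09 in SCC25, and in the 483 regions it was 1.43 and -0.18. The scaling bears on the split between signs. Subtracting the library medians shifted the median SCC1 change over all regions from -0.092 to 0.097 and gave 620 positive and 914 negative calls, and DESeq2 gave 1433 and 1419.

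**Figure D1:**
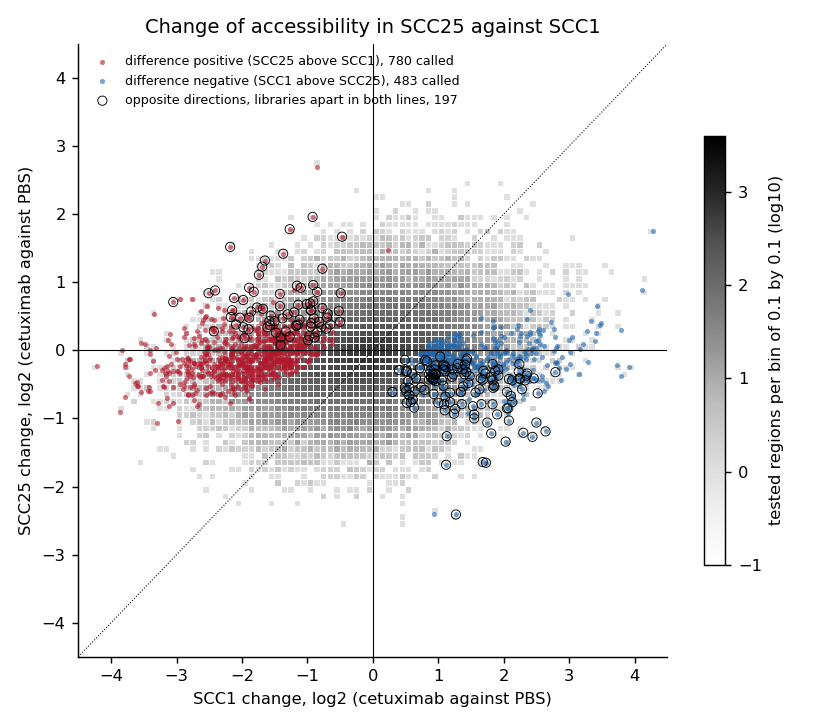
SCC1 change (x axis) and SCC25 change (y axis) of accessibility, both log2 of cetuximab against PBS, with grey squares for the number of tested regions, red and blue points for the 780 and 483 regions called in the interaction, and rings for the 197 regions whose libraries lay apart in opposite directions. The called regions stretch along the SCC1 axis and stay near 0 on the SCC25 axis.

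Taken by itself in the same fit, SCC1 had 4370 regions higher (5.06%) and 7417 lower (8.59%) after cetuximab, and SCC25 had 1 (0.00116%). In SCC25, 6530 regions reached an unadjusted p under 0.05, edgeR called 175 and DESeq2 88, and a limma fit of the 6 SCC25 libraries alone called 240. The median SE of a change was 0.42 in SCC1 and 0.37 in SCC25, a ratio that the numbers of libraries fix, since both lines share 1 estimate of the spread. Across all tested regions, 5% to 95% of changes spanned -1.46 to 1.14 in SCC1 and -0.80 to 0.64 in SCC25. Reads thinned to 2194851 in every library left 508 regions with an interaction call. The number of interaction calls also rested on single libraries, from 192 without SCC25 PBS replicate 3 and 275 without SCC1 PBS replicate 1 to 3351 without SCC1 cetuximab replicate 2.

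Most regions called in SCC1 were not called as different in SCC25. Of the 11787, 1236 (10.5%) had an interaction call and 10551 had none. In the 7417 regions lower in SCC1, 80.0% of SCC25 changes were negative, against 59.1% over all tested regions, with a median of -0.25. In the 4370 higher ones, 63.7% were positive, against 40.9%, with a median of 0.09. The 240 regions called in SCC25 from its own libraries were 30 higher and 210 lower. This split depended on the method, with 100 higher and 75 lower in edgeR, 49 and 39 in DESeq2, and 40 and 52 with array weights. Of the 30, 9 were also higher in SCC1 and none lower. Of the 210, 78 were also lower and 1 higher. Only 15 of the 240 (3 and 12) had an interaction call.

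No region with an interaction call was called in both lines with opposite signs within 1 fit, in the fit of 11 libraries or any of the 26 alternatives. In the wider set, an interaction call went with cetuximab and PBS libraries that did not overlap in either line and moved in opposite ways. It held 197 regions, of which 123 rose in SCC1 while SCC25 lay lower and 74 fell in SCC1 while SCC25 lay higher. Opposite directions without overlap were found in 1411 of all tested regions (1.63%). The SCC25 side of the set was small. Its median change was 0.53 in the 74 regions and -0.44 in the 123. In SCC25, 31 and 52 of them had an unadjusted p under 0.05, beside 6530 of all 86315 tested regions. The rule asked for SCC25 libraries that do not overlap, so these counts are not separate evidence of a SCC25 response.

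The region with the strongest evidence in this set lies in an intron of RERG, a small GTPase of the RAS family, 47.3 kb from a start site of PTPRO, a receptor-type tyrosine phosphatase (chr12:15427434-15427925). Its signal was 23.4 and 17.9 in the PBS libraries of SCC1 and 71.1, 79.8 and 79.8 in the cetuximab libraries. In SCC25 it was 126, 119 and 122 with PBS and 80.1, 88.6 and 85.0 with cetuximab. Both lines came to a similar level from opposite sides, and the groups did not overlap in either. The change was 1.86 in SCC1 and -0.53 in SCC25 (unadjusted 95% interval -0.94 to -0.11), a difference of -2.39 (SE 0.30, limma adjusted p = 0.000347). SCC25 was not called there by itself (limma adjusted p = 0.571).

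A region in an intron of MYCBP2, an E3 ubiquitin ligase (chr13:77782086-77782498), had 1.30 and 1.12 in SCC1 with PBS, the lowest value these libraries can take, and 11.4, 9.73 and 14.1 with cetuximab. In SCC25 it had 127, 152 and 106 with PBS and 70.3, 84.0 and 92.1 with cetuximab. The fitted difference of -3.15 (adjusted p = 0.00186) depends on the pseudocount, since the SCC1 PBS libraries are at the floor of 1 read, and the alternatives gave -4.01 to -2.03. In SCC6 this region rose by 2.25 (adjusted p = 1.5e-05).

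In the other direction, a region 171 kb from ALDH8A1 (chr6:135078969-135079423) is one where SCC25's own interval left 0. Its signal fell in SCC1 from 107 and 102 to 36.8, 35.0 and 25, and in SCC25 it was 23.7, 31.0 and 24.6 with PBS and 32.3, 48.2 and 42.5 with cetuximab. SCC25 changed by 0.61 (0.04 to 1.17) but was not called by itself (limma adjusted p = 0.628). The set was chosen for SCC25 libraries that do not overlap, so this interval is not separate evidence of a SCC25 response. The difference was 2.28 (SE 0.41, adjusted p = 0.00727). An intronic region of SUSD4 (chr1:223403528-223404222) fell in SCC1 from 98.9 and 103 to 21.6, 42.8 and 17.2. The SCC25 libraries there held 85.9, 80.8 and 79.7 with PBS and 91.4, 94.4 and 93.9 with cetuximab, a small shift without overlap (difference 2.14, adjusted p = 0.00709).

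NNMT, which methylates nicotinamide, carried 2 called promoter regions. At the one that spans an annotated start site (chr11:114166944-114167129), SCC1 had 66.4 and 98.3 with PBS and 21.6, 25.3 and 14.1 with cetuximab. SCC25 had 39.9, 51.9 and 39.0 with PBS and 56.2, 53.4 and 54.9 with cetuximab. The lines crossed over here, with SCC1 above SCC25 before treatment and below it after (difference 2.31, SE 0.42, adjusted p = 0.00727). The second (chr11:114165608-114166195) fell in SCC1 from 303 and 284 to 156, 152 and 113, and stayed between 230 and 265 in all SCC25 libraries (difference 1.16, adjusted p = 0.00727). SCC6 rose at this second region by 0.72 (limma adjusted p = 9.6e-05).

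**Figure D2:**
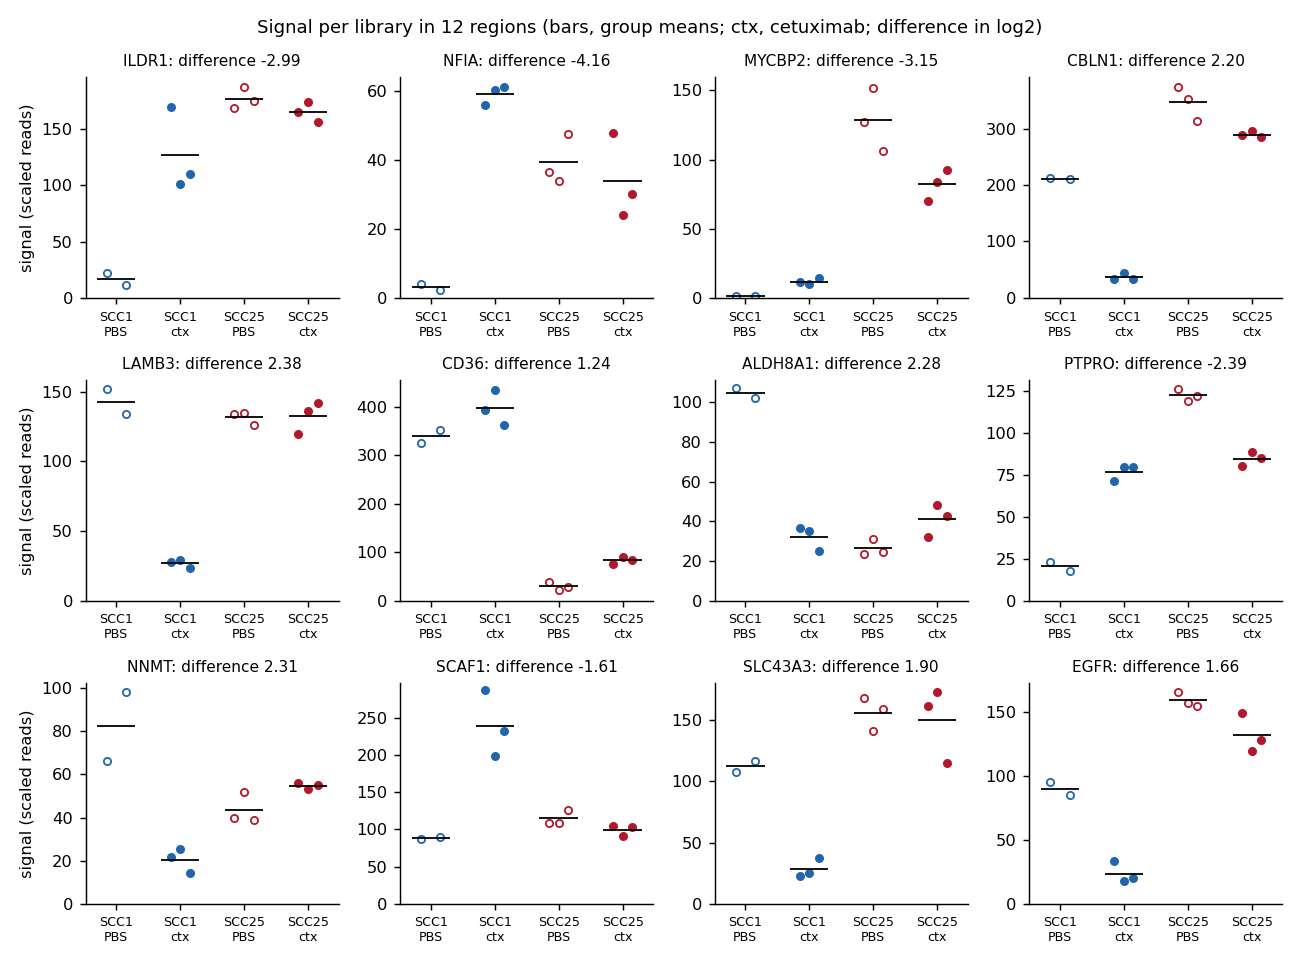
Signal per library (scaled reads, linear axis from 0) in 12 of the named regions, each headed by its nearest start site and the log2 difference, with open points for PBS, filled points for cetuximab and bars for group means. In LAMB3, SLC43A3 and EGFR the SCC1 cetuximab libraries drop below all others, in ILDR1 and NFIA they leave the SCC1 PBS level, and in CD36 the group means go from 30.2 to 83.8 in SCC25 and from 339 to 397 in SCC1.

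Regions that moved in SCC1 only were the largest class by rule. They needed calls in SCC1 and in the interaction, none in SCC25, and a SCC25 change within 0.3 of 0. By this rule 483 regions were lower and 302 higher in SCC1 only. The limit of 0.3 is a choice and not proof that SCC25 did not respond, since the median SE of a SCC25 change was 0.24 in the lower and 0.21 in the higher regions. A limit of 0.5 gave 1061 regions in place of 785.

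The 483 regions lower in SCC1 only had similar medians in both lines before treatment, over members that went either way (SCC25 was above SCC1 in 48.0%). Their median signal with PBS was 95.7 in SCC1 and 92.3 in SCC25, and with cetuximab it was 26.9 and 90.2. Peaks were called in 79.6% of region and library pairs in SCC1 PBS, 15% in SCC1 cetuximab, 90.3% in SCC25 PBS and 70.3% in SCC25 cetuximab, where shallower cetuximab libraries had fewer peaks over all regions too (34.4% against 63.5%). Of these regions 464 were distal, at a median of 50.8 kb from a start site for the whole class. Their windows held AP-1 sites in 39.7% of distal cases, against 30.2% of all distal regions tested and 45.6% of the 7078 distal regions lower in SCC1.

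Among the lower class was a region near LAMB3, which encodes the beta 3 chain of laminin-332, the anchor of squamous epithelium to its basement membrane. A region 4.72 kb from its start site (chr1:209830494-209830927) had 152 and 134 in SCC1 with PBS and 27.9, 29.2 and 23.5 with cetuximab. In SCC25 it had 134, 135 and 126 with PBS and 120, 136 and 142 with cetuximab. The lines were alike without the antibody, and SCC1 alone was called, with a change of -2.37. The difference was 2.38 (SE 0.28, adjusted p = 0.000214), with a SCC25 change of 0.01 (-0.38 to 0.39). SCC6 fell there by 0.51 (adjusted p = 0.00618). A second region near LAMB3, in an intron of CAMK1G (chr1:209780736-209781041), fell in SCC1 from 125 and 108 to 60.9, 37.0 and 31.3 and had a weaker call, lost under 12 of 26 alternatives (difference 1.97, adjusted p = 0.0338).

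The smallest p of all belonged to a region on chromosome 16 between genes (chr16:49056553-49057484), 258 kb from CBLN1, a synaptic organiser. SCC1 had 212 and 210 with PBS and 34.3, 44.8 and 34.4 with cetuximab. SCC25 had 374, 353 and 314 with PBS and 288, 295 and 285 with cetuximab, so that its libraries did not overlap either and lay lower by 0.26 (adjusted p of the difference 5.9e-05, difference 2.20, SE 0.22). On chromosome 8, a region 301 kb from COL22A1, a collagen gene, fell in SCC1 from 239 and 222 to 43.2, 68.1 and 42.3 (difference 1.99, adjusted p = 0.000108) and in SCC6 by 1.15. SCC25 also lay lower there without overlap, from 710, 757 and 742 to 591, 638 and 700 (change -0.2). A region in an intron of ANXA13, an annexin, fell from 269 and 312 to 48.2, 87.6 and 62.6 in SCC1 (difference 2.07, adjusted p = 0.000347), and in SCC6 it rose by 1.53 (adjusted p = 3.0e-07).

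The 302 regions higher in SCC1 only were split between 150 promoter regions and 152 distal ones. Most of the distal ones were less open in SCC1 than in SCC25 before treatment. With PBS, SCC25 stood above SCC1 in 146 of the 152, by a median log2 of 2.35, and with cetuximab the gap was 0.45 and smaller than before in 128. These levels are the ones the difference is built from, so they are given without a test. AP-1 sites were in 16.4% of these windows, against 30.2% of all distal regions and 15.9% of the 2469 distal regions higher in SCC1.

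A region between genes on chromosome 3 (chr3:121693292-121694028), 46.9 kb from ILDR1, a protein of tricellular junctions, shows the pattern. SCC1 had 22.1 and 11.2 with PBS and 169, 101 and 110 with cetuximab, while SCC25 had 168, 187 and 175 with PBS and 165, 174 and 156 with cetuximab. With cetuximab 1 SCC1 library reached the range of SCC25 and the other two came nearer to it (difference -2.99, SE 0.33, adjusted p = 0.000108). SCC6 rose from a mean of 77.9 to 288 there (change 1.88, adjusted p = 2.9e-15).

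The intronic region of NFIA, a transcription factor of the nuclear factor I family (chr1:61789473-61789841), had 3.90 and 2.23 in SCC1 with PBS, which is 3 reads or fewer, and 55.8, 60.3 and 61 with cetuximab. SCC25 had 36.6, 33.9 and 47.5 with PBS and 47.8, 24.1 and 30.1 with cetuximab. The fitted difference was -4.16 (adjusted p = 0.000347), and SCC6 did not pass the test (-0.67, adjusted p = 0.183). The region in an intron of BICD2, an adaptor of the dynein motor (chr9:95477709-95478574), rose in SCC1 from 15.6 and 19.0 to 47.0, 66.2 and 62.6, and stayed far below the 363 to 462 of all SCC25 libraries (difference -1.85, adjusted p = 0.000743).

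**Figure D3:**
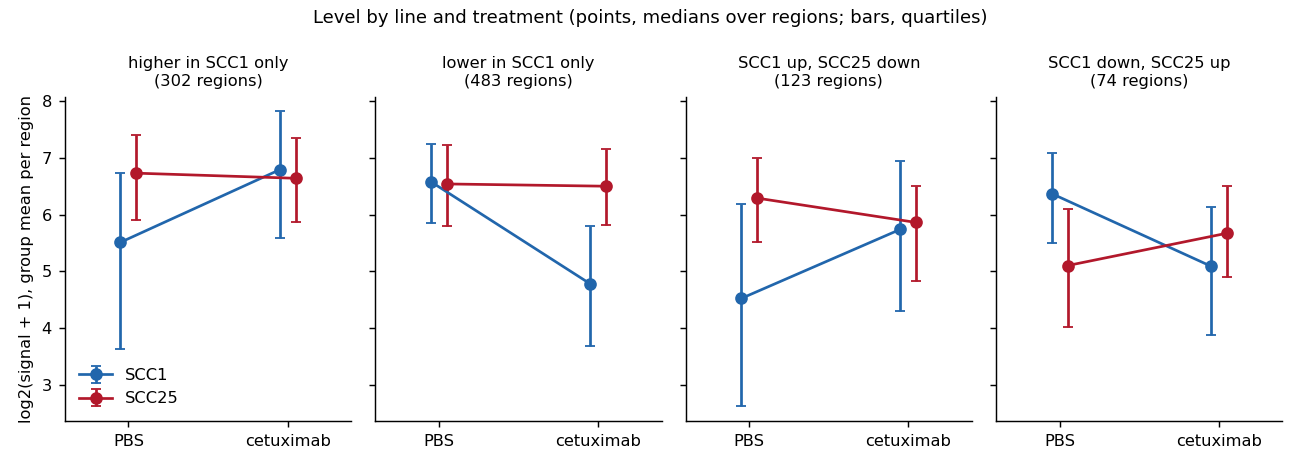
Level of the regions of 4 classes, as the log2 of signal plus 1 averaged per group (y axis), with PBS and cetuximab on the x axis, points for medians over regions and bars for quartiles. Regions lower in SCC1 only start level in both lines (medians 6.58 and 6.54) and end at 4.78 and 6.50, and regions higher in SCC1 only start at 5.51 and 6.73 and end at 6.79 and 6.64.

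One region met the rule for SCC25 only, and 7 did with edgeR. It lies in an intron of CD36, a scavenger receptor that takes up fatty acids (chr7:80193124-80193722), and it was the single SCC25 call of the joint fit. SCC25 had 38.8, 23.1 and 28.8 with PBS and 75.9, 90.5 and 85.0 with cetuximab. SCC1 was open throughout, with 325 and 352 with PBS and 393, 434 and 363 with cetuximab. The SCC25 groups lay far apart, and the SCC1 groups were apart by a narrow margin in the same direction. The mean went from 30.2 to 83.8 in SCC25 and from 339 to 397 in SCC1, so that the lines differed in ratio and not in the amount of signal gained. The change was 1.47 in SCC25 (1.09 to 1.84) and 0.23 in SCC1 (SE 0.20), a difference of 1.24 (SE 0.27, adjusted p = 0.0231). The call was lost under 6 of the 26 alternatives, 5 of which left out 1 library (SCC1 PBS replicate 1 or 3, SCC25 cetuximab replicate 2, or SCC25 PBS replicate 2 or 3), with a difference of 1.07 to 1.30. Of 87 tested regions near the 14 genes of lipid handling, this was the only one called. Beyond this rule, 24 of the 1263 regions had a larger change in SCC25 than in SCC1, 11 higher and 13 lower in SCC25 (0.55 to 2.70 in size), and in 23 of them the signs were opposite. In 27 of the 1263 SCC1 was not called, and all 27 had an unadjusted p under 0.05 in SCC25. These counts come from the same values that chose the regions. A called difference without a SCC1 call has to come largely from SCC25, so they are not separate evidence of a response there.

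The libraries of SCC6, the other line of the study, chose none of these regions and give an independent readout. In SCC6 alone, 15.8% of the 68788 regions tested there too were higher after cetuximab and 12.8% lower. Of the distal regions higher in SCC1 only, 69 of 127 (54.3%) were higher in SCC6 and 2 (1.6%) lower, against 19.0% and 13.3% of all distal regions and 43.3% and 4.8% of all distal regions higher in SCC1. Of those lower in SCC1 only, 140 of 410 (34.1%) were lower and 51 (12.4%) higher, beside 30.0% and 9.3% of all distal regions lower in SCC1. Nothing particular to the regions that differ from SCC25 is read from these shares. Of 150 promoter regions higher in SCC1 only, 3 were higher in SCC6 and 19 lower (12.7%), near the 3.4% and 10.9% of all promoter regions.

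The opposite regions split in SCC6. Of the distal ones that rose in SCC1 while SCC25 lay lower, 26 of 70 (37.1%) were higher and 12 (17.1%) lower. The shares were 19.0% and 13.3% over all distal regions, and 43.3% and 4.8% over all distal regions higher in SCC1. Of the distal ones that fell in SCC1 while SCC25 lay higher, 12 of 56 were higher and 11 lower, close to the shares over all distal regions. Over all distal regions lower in SCC1 the shares were 9.3% and 30.0%.

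**Figure D4:**
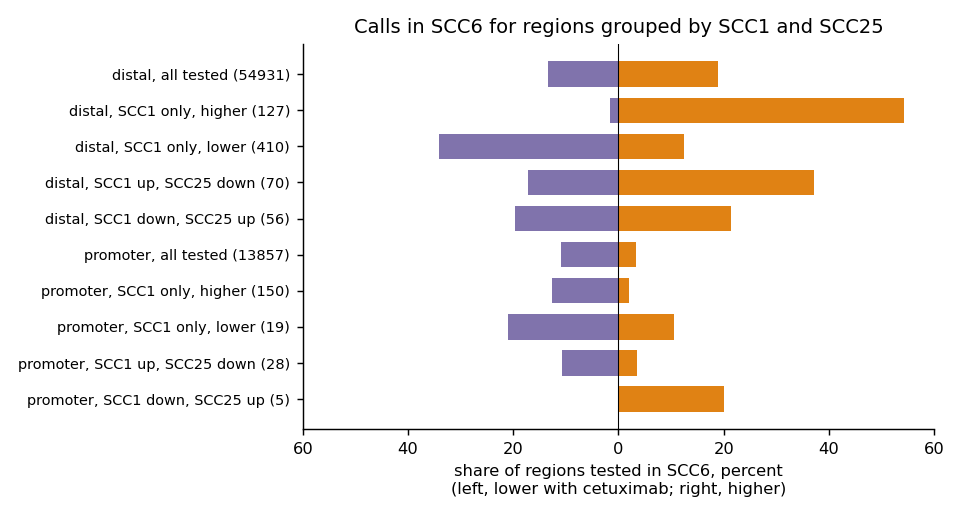
Share of regions called in SCC6 (x axis, percent; lower to the left, higher to the right) for classes defined from SCC1 and SCC25, with the number tested in SCC6 in brackets. The bar of distal regions higher in SCC1 only reaches 54.3% to the right, and that of promoter regions higher in SCC1 only reaches 2.0%.

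At promoters the interaction leaned one way. Of 14547 promoter regions tested, 178 had a negative difference (SCC1 change above SCC25 change) and 29 a positive one, where distal regions had 305 and 751. The 178 had a median change of 1.08 in SCC1 and -0.10 in SCC25. GC content and library make-up moved with this result. Of 5 equal bins of regions by GC content, the richest (59.2% to 96.8%) held 188 negative and 26 positive calls, and the middle bin 47 and 229. Promoter regions took 38.5% to 42.3% of reads in SCC1 cetuximab libraries against 34.8% and 34.9% in SCC1 PBS libraries, and 32.0% to 32.3% against 30.2% to 30.5% in SCC25. With each library's trend on GC content removed, 95 promoters had a negative and 44 a positive difference. Their part in the result was not tested beyond this.

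Chromosome 19 held 65 of the 483 negative calls, 52 of them promoters, and 1 positive call among 1948 regions tested. Its negative calls came to 3.34% of its regions, and chromosome 17 followed with 1.82%. The share of reads on chromosome 19 was 2.19% to 2.91% in SCC1 cetuximab libraries and 1.63% and 1.66% in SCC1 PBS libraries, and in SCC25 it was 2.17% to 2.43% with cetuximab, which overlapped the PBS libraries (lowest 2.10%). NFY sites were in 41.0% of the windows of promoters with a negative difference and in 23.5% of all promoter windows, SP/KLF sites in 51.1% and 54.7%, and ETS sites (CCGGAAGT) in 3.9% and 4.0%. In the 1901 promoters higher in SCC1 the shares of NFY, SP/KLF and ETS sites were 32.3%, 65.5% and 4.8%.

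**Figure D5:**
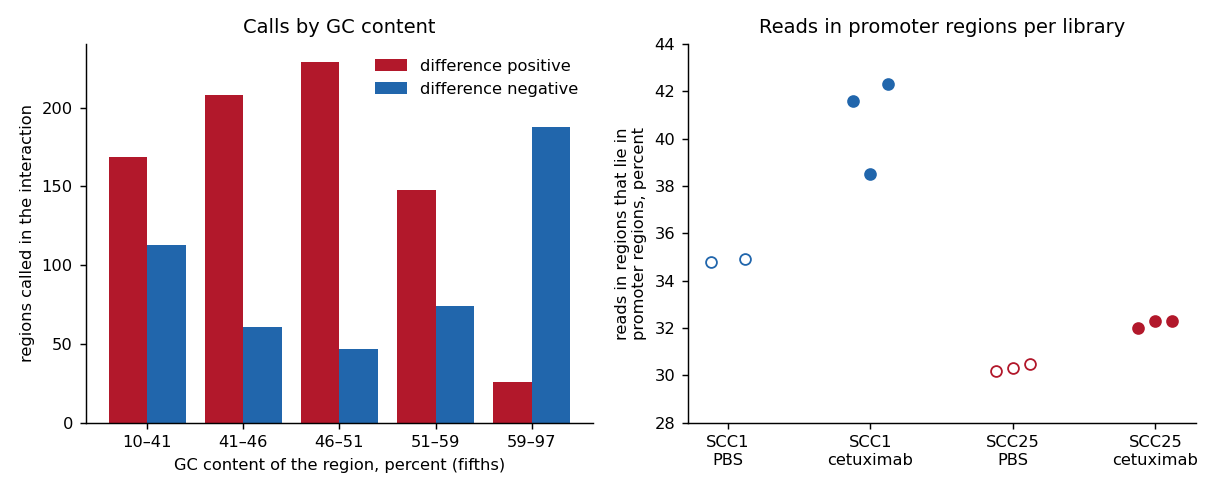
Left, number of regions called in the interaction (y axis) in 5 bins of GC content (x axis, percent), red for a positive and blue for a negative difference. Right, percent of each library's reads in regions that fall in promoter regions (y axis, starting at 28). Negative calls lead only in the richest bin, 188 against 26, and the SCC1 cetuximab libraries lie above the other groups.

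The 4 promoters with the smallest p on the negative side are all on chromosome 19. At SCAF1, a partner of RNA polymerase II (chr19:50145070-50145474), SCC1 rose from 87.2 and 90.4 to 287, 199 and 233. SCC25 had 109, 109 and 126 with PBS and 104, 90.5 and 103 with cetuximab, lower without overlap (difference -1.61, SE 0.25, adjusted p = 0.00241). At GET3, which inserts tail-anchored proteins into membranes (chr19:12847640-12848309), SCC1 rose from 105 and 107 to 268, 189 and 224, and SCC25 went from 277, 275 and 282 to 253, 220 and 241 (difference -1.30, adjusted p = 0.00297).

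AP2A1 encodes a subunit of the AP-2 adaptor, which gathers receptors such as EGFR into clathrin-coated pits (chr19:50269526-50270240). SCC1 had 267 and 233 with PBS and 558, 477 and 579 with cetuximab, and all SCC25 libraries lay between 186 and 253 (difference -1.22, SE 0.19, adjusted p = 0.00251). The promoter shared by CCDC159, RAB3D and TMEM205 (chr19:11456877-11457427) rose in SCC1 from 42.9 and 60.3 to 154, 142 and 146, with 127 to 184 in SCC25 (difference -1.69, adjusted p = 0.00233). In SCC6 that promoter was lower (-0.49, adjusted p = 0.00302), as was that of GET3 (-0.25, limma adjusted p = 0.0105). The SCAF1 and AP2A1 promoters had SCC6 changes of -0.02 and -0.03.

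On the positive side, the promoter of SLC43A3, a transporter of purine bases (chr11:57192236-57192964), fell in SCC1 from 108 and 117 to 22.8, 25.3 and 37.6. SCC25 had 168, 141 and 159 with PBS and 162, 173 and 115 with cetuximab, with no order between its groups (difference 1.9, SE 0.32, adjusted p = 0.0036). At the promoter of BCL11B, a zinc finger transcription factor (chr14:99738485-99738735), SCC1 fell from 46.8 and 56.9 to 19.0, 19.5 and 12.5 and SCC25 lay higher with cetuximab (81.6, 79.5 and 97.4) than with PBS (70.8, 62.0 and 65.3). The difference there was 1.95 (SE 0.38, adjusted p = 0.0116).

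Regions were also grouped by lists of genes, each region going to the nearest start site within 50 kb, which says where a region lies and not which gene it acts on. Beside the 1.46% called of all tested regions, the counts of 0 to 4 calls in each list are small, and nothing particular to a list is read from them. For EGFR and its 3 relatives, 1 of 35 regions was called. It lies 22.7 kb from the nearest start site of EGFR (chr7:55063399-55064025). SCC1 had 95 and 84.9 with PBS and 33.0, 17.5 and 20.3 with cetuximab. SCC25 had 165, 157 and 154 with PBS and 149, 119 and 128 with cetuximab. Both lines lay lower without overlap, and the SCC1 change of -1.93 was larger than the SCC25 change of -0.27 (difference 1.66, SE 0.33, adjusted p = 0.0124). SCC6 was lower by 0.52 (adjusted p = 0.0196). At the EGFR promoter itself (chr7:55086350-55087022) the difference was -0.49 (-1.03 to 0.06, adjusted p = 0.387), with means of 117 and 181 in SCC1 and 118 and 128 in SCC25 for PBS and cetuximab. By limma it was higher in SCC1 by 0.61 (adjusted p = 0.0411) and in SCC6 by 0.42 (adjusted p = 0.0102). SCC25 was not called there (0.12, adjusted p = 0.921). None of 32 regions near EGFR ligands was called.

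Of the genes downstream of ERK, 2 of 96 regions were called. A region near DUSP5, a phosphatase that inactivates ERK (chr10:112247309-112247567), fell in SCC1 from 32.5 and 29.0 to 3.81, 9.73 and 4.69, with 23.8 to 44.3 in SCC25 (difference 2.42, adjusted p = 0.0435). One in an intron of EPHA2, an ephrin receptor (chr1:16470015-16470634), rose in SCC1 from 70.3 and 49.1 to 140, 93.4 and 163 (difference -1.42, adjusted p = 0.0353). Both calls were lost under many alternatives, 17 and 13 of 26. Among the AP-1 factors, 1 of 60 regions was called, 36.4 kb from FOSL2 (chr2:28579081-28579281). It rose in SCC1 from 11.7 and 5.58 to 43.2, 35.0 and 75.1, and in SCC25 it went from 14.7, 7.21 and 9.33 to 1.41, 5.21 and 5.31. The directions were opposite without overlap, at low signal in SCC25 (difference -3.71, SE 0.77, adjusted p = 0.0173). This FOSL2 call was lost under 5 of the 25 alternatives that tested the region.

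Vimentin (VIM), a mesenchymal filament protein, is one of the genes the study follows. A region 11.5 kb from its nearest start site, within the non-coding gene VIM-AS1 (chr10:17258234-17258734), had 57.2 and 68.1 in SCC1 with PBS and 14.0, 1.95 and 1.56 with cetuximab, the last 2 at the floor of 1 read. In SCC25 it had 126, 88.7 and 129 with PBS and 99.8, 97.7 and 115 with cetuximab. SCC1 fell to near 0 in 2 libraries, and the SCC25 groups overlapped at a high signal (difference 3.6, SE 0.64, adjusted p = 0.00716), and it was the only called one of 86 near genes of the epithelial to mesenchymal transition. SCC6 was lower there (-0.72, adjusted p = 0.00706).

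None of the promoter regions with the highest mean signal at VIM, TFAP2A, AXL and IGF1R was called. Those of TFAP2A (chr6:10403861-10404945), AXL (chr19:41731614-41732338) and IGF1R (chr15:99433224-99433772) lie in introns, at or within 1 kb of an annotated start site. A gene can have several start sites, so these need not be the main promoters. At the VIM promoter the difference was 0.36 (-0.25 to 0.98), at TFAP2A -0.08 (-0.40 to 0.23), at the receptor kinase AXL -0.56 (-1.35 to 0.23) and at IGF1R 0.63 (0.00 to 1.26). TFAP2A, the transcription factor the study centres on, had the narrowest interval, with means of 512 and 502 in SCC1 and 381 and 352 in SCC25 for PBS and cetuximab, and its sign turned under 3 alternatives. The other intervals reach changes of a size called elsewhere, so a difference at these promoters was not shown and may still exist. Of 74 regions near TFAP2 factors and the receptors the study names, and of 69 near bypass receptors and their ligands, none was called.

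Of 131 matrix and protease regions 4 were called (3.05%), and of 148 adhesion regions 3 (2.03%), beside 1.46% of all tested regions. TNC, the matrix protein tenascin C, had an intronic region (chr9:117798503-117799395) that fell in SCC1 from 232 and 210 to 68.5, 35.0 and 76.7, while SCC25 kept 184 to 248 in all libraries (difference 2.01, SE 0.31, adjusted p = 0.00222). SCC6 rose there by 0.80 (adjusted p = 0.00609). An intronic region of COL5A1, a fibrillar collagen (chr9:137536628-137537228), rose in SCC1 from 33.8 and 32.4 to 112, 93.4 and 114, with 172 to 253 in SCC25 (difference -1.55, adjusted p = 0.00385).

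In TIMP2, an inhibitor of matrix metalloproteases, an intronic region (chr17:76879270-76880133) rose in SCC1 from 152 and 165 to 366, 311 and 318 and lay between 58.4 and 100.0 in SCC25 (difference -1.22, adjusted p = 0.0255). PKP1, a desmosomal plaque protein, held one (chr1:201269094-201269429) that rose from 58.5 and 48.0 to 124, 132 and 155, with 61.9 to 72.4 in SCC25 (difference -1.42, adjusted p = 0.0175). The calls in TIMP2 and PKP1 were lost under 11 and 6 of 26 alternatives. The fourth matrix call was not among the 3 with the smallest p and is not named.

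Among cytokines and NF-kB genes, 2 of 86 regions were called, both lost in SCC1. The promoter and first exon of CSF2, which encodes the growth factor GM-CSF (chr5:131409361-131409729), fell from 41.6 and 56.9 to 7.62, 15.6 and 7.82 in SCC1. SCC25 had 130, 136 and 118 with PBS and 114, 117 and 103 with cetuximab, a smaller step in the same direction (difference 2.01, SE 0.39, adjusted p = 0.0124). A region near IL7R, the interleukin 7 receptor (chr5:35884185-35884815), fell from 311 and 267 to 141, 140 and 86.1 (difference 1.04, adjusted p = 0.0424), a call lost under 14 of 26 alternatives.

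In the interferon list, 2 of 27 regions were called, at the promoters of STAT2 and IRF9, both parts of the complex that answers type I interferon. STAT2 (chr12:56753794-56754405) rose in SCC1 from 161 and 173 to 377, 311 and 313, and in SCC25 from 234, 213 and 214 to 247, 246 and 243, so that the libraries lay apart and higher in both lines, by more in SCC1 (changes 0.99 and 0.16, difference -0.83, adjusted p = 0.0275). IRF9 (chr14:24630160-24630926) rose in SCC1 from 82.0 and 88.2 to 179, 158 and 191, with 118 to 150 in SCC25 (difference -0.95, adjusted p = 0.0485). The calls were lost under 10 and 16 of 26 alternatives.

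The TGF-beta list gave 1 call of 114 regions. The promoter of SMAD3, which carries TGF-beta signals (chr15:67357596-67358197), rose in SCC1 from 45.5 and 55.8 to 105, 103 and 111 and stayed between 81.6 and 96.7 in SCC25 (difference -1.11, adjusted p = 0.0452). The call was lost under 15 of 26 alternatives.

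For NOTCH and WNT, 2 of 103 regions were called. In an intron of TCF7L2, the partner of beta-catenin (chr10:114748415-114749078), SCC1 fell from 14.3 and 21.2 to 3.81, 1.95 and 1.56, near the floor, and SCC25 went from 263, 216 and 217 to 181, 182 and 172 (difference 2.11, adjusted p = 0.0138). In WNT7B, a WNT ligand (chr22:46339106-46339341), SCC1 rose from 5.20 and 7.82 to 24.1, 21.4 and 17.2 and SCC25 went from 33.5, 36.8 and 36.5 to 14.1, 22.8 and 15.9, opposite and without overlap (difference -2.56, adjusted p = 0.028). Each of these calls was lost under 9 of 26 alternatives.

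No region was called in the lists of Hippo and TEAD (91 regions), keratins and cornified envelope (50), cell cycle entry (40), replication and mitosis (39), apoptosis (61), RAS and PI3K (49) and NRF2 (61). The keratin list had the median difference farthest from 0 of all lists, -0.55, with a median change of 0.63 in SCC1 and 0.01 in SCC25, against a median difference of 0.02 over all tested regions. In SCC1, 13 of its 50 regions were higher and none lower. In these lists the absence of calls does not show that the lines responded alike. On simulated reads the interaction recovered 27.3% of regions changed by a log2 of 2 and 76.8% of those changed by 3. That simulation tested 99 changed regions of each size, changed in SCC25 cetuximab only, at a set dispersion of 0.05. Of its 111 calls, 8 were false. Far fewer regions changed in it than were called here, so its shares are not the recovery in these data.

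As a description with no test, 4 genes had 3 called regions each. Near SIK1, a salt-inducible kinase on chromosome 21 (44816726 to 44866472), 3 of 8 regions had a negative difference. The farthest one (chr21:44816726-44817018) had 22.1 and 32.4 with PBS and between 52.6 and 79.8 with cetuximab in SCC1. In SCC25 it had between 41.8 and 58.5 with PBS and between 23.0 and 30.9 with cetuximab, so the lines exchanged places (changes 1.26 and -0.86, difference -2.12, adjusted p = 0.0124). The others had SCC1 changes of up to 2.78 and SCC25 changes of -0.18 and -0.45. The change of 2.78 started from 1.30 and 2.23 in SCC1 with PBS, near the floor.

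EHF, an ETS factor of epithelial cells, had 3 of 9 regions called on the positive side, all between 34621094 and 34642643 on chromosome 11. The SCC1 changes were -2.28, -2.02 and -2.57, and the SCC25 changes -0.27, -0.11 and 0.49. The region that spans a start site (chr11:34642381-34642643) went in SCC1 from 13.0 and 26.8 to between 1.56 and 3.81, near the floor of 1 read. In SCC25 it held 25.4 to 33.2 with PBS and 31.9 to 53.1 with cetuximab.

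MYO10, a myosin that builds filopodia, had 3 of 18 regions called. The strongest, 21.4 kb from a start site (chr5:16957825-16958310), fell in SCC1 from 46.9 and 54.6 to between 3.89 and 7.62, while SCC25 held between 138 and 150 with PBS and between 89.2 and 114 with cetuximab (changes -3.05 and -0.54, difference 2.52, adjusted p = 0.00241). In SCC6 it fell by 1.08. POU5F1B, a retrogene of the POU factor OCT4 on chromosome 8, had 3 of 12 regions called. SCC1 changes were -2.59, -1.48 and -0.91, and SCC25 changes 0.44, 0.24 and 0.72. For the third, SCC25's own unadjusted interval was 0.24 to 1.20, and SCC25 was not called there by itself. SCC25 had 23.8 to 31.7 with PBS and 33.9 to 57.7 with cetuximab, against 213 and 253 falling to between 106 and 156 in SCC1.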

How the data were processed

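Chromatin accessibility had been profiled by ATAC-seq in the lines SCC1, SCC6 and SCC25 after cetuximab or PBS. Per the study's methods and the submitters' processing notes, the authors trimmed reads with Trim Galore 0.5.0, aligned them to hg19 (GRCh37) with Bowtie2 2.3.2, removed duplicate, mitochondrial and low-quality reads with Picard 2.18 and SAMtools 1.9, ran MACS2 on every library separately for broad peaks, and built 1 region table with DiffBind. The deposited table holds a scaled read signal for 115087 regions, with each library's reads multiplied by 1 factor and a 0 set to 1 read. Whole reads were recovered from it for 100.0% of values (tolerance 0.001). The deposited peak lists hold a score, a fold enrichment ratio over background and −log10 p and q values, of which only peak positions were used.

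The log2 of signal plus 1 was fitted with limma 3.58.1 (trended, robust) in R 4.3.3 on 11 libraries with 4 group means, after the 25% of regions lowest in mean signal were left out, and p-values were adjusted by Benjamini-Hochberg at 0.05. The design had allowed for counts, and limma was kept as the main test because the values are scaled. edgeR 4.0.16 and DESeq2 1.42.0 on recovered reads were alternatives, with other scalings, pseudocounts, filters, a GC correction, thinned reads and each library left out. SCC6 was fitted on its 6 libraries. A promoter region lies within 1 kb of a start site of a protein-coding gene (GENCODE 44 on GRCh37), and other regions are called distal. Motifs were searched on both strands of the central 200 bases.

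Named regions were the 4 with the smallest interaction p in each class, the 4 promoters with the smallest adjusted p in each direction, at most 3 called regions in each list, the promoters of EGFR, TFAP2A, VIM, AXL and IGF1R, and genes with 3 or more called regions in 1 direction. The members and lists were chosen with earlier results of these data known. The test was checked on simulated reads. Some regions that met this rule, and some marker genes, are not reported here.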

Additional observations from a re-analysis of the deposited data

Results flagged for a closer look

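A tested difference between the responses of the lines was found in 1263 regions, 207 of them promoters. The named regions among them are given here by nearest start site with their log2 difference, SCC25 change minus SCC1 change. These are differences of changes and not of signal levels. The SCC25 change was above the SCC1 change by 3.6 near VIM, 2.42 near DUSP5, 2.38 and 1.97 near LAMB3, 2.31 and 1.16 at NNMT, 2.28 near ALDH8A1, 2.20 near CBLN1, 2.14 near TLR5 (in SUSD4), 2.11 in TCF7L2, 2.07 in ANXA13, 2.01 in TNC, 2.01 at CSF2, 1.99 near COL22A1, 1.95 at BCL11B, 1.9 at SLC43A3, 1.66 near EGFR, 1.24 in CD36 and 1.04 near IL7R. The difference was negative, with the SCC1 change above the SCC25 change, at -4.16 in NFIA, -3.71 near FOSL2, -3.15 in MYCBP2, -2.99 near ILDR1, -2.56 in WNT7B, -2.39 near PTPRO (in RERG), -1.85 near IPPK (in BICD2), -1.69 at CCDC159/RAB3D/TMEM205, -1.61 at SCAF1, -1.55 in COL5A1, -1.42 in EPHA2, -1.42 in PKP1, -1.30 at GET3, -1.22 at AP2A1, -1.22 in TIMP2, -1.11 at SMAD3, -0.95 at IRF9 and -0.83 at STAT2.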

How the results depend on the processing

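The sign of the difference held for all 1263 regions under each alternative that tested them, while the number of calls moved. Regions called in the interaction (1263) came to 658 with quantile normalization, 672 with no filter, 2100 with all 3 lines in the fit, 2016 with array weights, 183 at an adjusted p under 0.01, 3607 with edgeR, 2852 with DESeq2 and 508 with thinned reads, an alternative chosen after seeing the data. Promoter regions (207) came to 90, 88, 443, 402, 12, 842, 817 and 77 in that order, to 420 with libraries centred on their medians and to 311 with a pseudocount of 5. SCC1-only regions (785) came to 419, 404, 1272, 1314, 119, 2349, 2000 and 298. Opposite regions (197) came to 102 with no filter, 309 with all lines, 18 at the stricter threshold, 428 with edgeR, 335 with DESeq2 and 77 with thinned reads. SCC1 calls (11787) fell to 4994 at the stricter threshold. SCC25 calls (1) were 4 with a pseudocount of 5, 2 with no filter, 32 with all lines, 92 with array weights, 175 with edgeR, 88 with DESeq2 and 240 on its own libraries, also chosen after seeing the data. SCC25-only regions (1) were 0 with centring, GC correction or the stricter threshold, 2 with no filter or array weights, 4 with all lines or DESeq2 and 7 with edgeR.

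Leaving out 1 library gave 192 to 3351 interaction calls, 14 to 896 promoter regions, 4351 to 14100 SCC1 calls, 1 to 6 SCC25 calls, 30 to 428 opposite regions, 124 to 2228 SCC1-only and 0 to 1 SCC25-only regions. The interaction gave 192, 333 and 331 calls without SCC25 PBS replicates 3, 2 and 1, 680, 437 and 675 without SCC25 cetuximab replicates 1, 2 and 3, 3351 when SCC1 cetuximab replicate 2 was dropped, and 275 and 693 when SCC1 PBS replicate 1 or 3 was. In the last pair the split turned to 118 positive and 157 negative, and 274 and 419. When SCC1 PBS is left with 1 library, that library is assumed to vary like the other groups. Same-numbered libraries did not deviate together (correlations of -0.025 to 0.007), and a replicate block gave 2327 interaction calls, 650 at promoters, and 1563 SCC1-only regions. The TFAP2A promoter changed sign with quantile normalization (0.01), cyclic loess (0.04) and GC correction (0.02). Of 1169 values for the 45 named regions, 993 kept their direction and side of the threshold and 173 lost their call. The causes were not tested. In SCC1 the depth limits single regions, with a median of 7 to 15 reads a region and library.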
